A study of Homo sapiens with 18 samples.

Results

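The 38 genes described here encode contractile and muscle cytoskeleton proteins: actins, the proteins that bind and regulate actin filaments, myosins and a myosin kinase, troponins and titin, intermediate filament proteins, and proteins of the Z-disc and of actin crosslinks. The list was set by name, as actomyosin and muscle structural genes, and no measured value enters its rule; all 38 were among the 55765 gene symbols of the deposited table. A mean of at least 10 normalized counts over the 18 libraries was needed for testing, and 33 of the 38 reached it. ACTA1, ACTC1, MYL4, MYH11 and DES did not and are given by their values only.

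The cells were G401, an established line of malignant rhabdoid tumour, a childhood cancer marked by loss of the chromatin remodelling subunit SMARCB1. RNA was sequenced from a control line edited with CRISPR/Cas9 at AAVS1, a safe harbour site (WT), and from clones E1 and F2, in which both copies of RB1 were disrupted. Each line received 10 µM tazemetostat, which blocks the histone methyltransferase EZH2, or the same volume of the solvent DMSO for 11 days, with 3 biological replicates in each of the 6 groups. All groups share the G401 background and had been through genome editing, and E1 and F2 are 1 clone each, so that a difference from WT cannot be told apart between loss of RB1 and the history of the clone. The labels do not say how the replicate cultures were set up, so p-values measure the spread between these cultures.

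Libraries held 25709489 to 39314860 recovered reads. SMARCB1 had 0 reads in all 6 groups. Without the inhibitor, RB1 transcript stood at 2694 ± 130 normalized counts in WT and at 648 ± 140 and 839 ± 30 in clones E1 and F2 (SD, n = 3). Some markers of muscle lineages were near absent: MYOG and MYF5 of skeletal muscle and NKX2-5 and NPPA of heart muscle had at most 3 reads in every library. MYOD1 did too in all groups but F2 with tazemetostat. Others were present: over the 3 WT DMSO libraries, TNNI3 of heart muscle had 379 reads and MYH3 of skeletal muscle 263. MYH6 of heart muscle went from 6, 13 and 1 reads over the DMSO libraries of WT, E1 and F2 to 36, 25 and 74 with tazemetostat. GATA4 of heart muscle went from 0 reads in each line to 7, 10 and 46. TNNI3 went the other way, to 0.728, 0.633 and 0.641 of its DMSO level in WT, E1 and F2. E1 DMSO replicate 3 was the lowest E1 DMSO library for several abundant cytoskeleton genes, and its values are given where a result touches them.

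Muscle contracts when myosin motors pull on actin filaments. In smooth muscle the trigger is phosphorylation of the myosin light chain by myosin light chain kinase, with caldesmon and calponin acting as brakes on the filament, whereas in striated muscle calcium acts through the troponins on tropomyosin, and titin and the Z-disc hold the filaments in register. Many of these genes share a promoter element, the CArG box, which binds serum response factor (SRF) with its myocardin family partners. Non-muscle cells use related actins, myosins and crosslinkers for shape and movement, and rhabdoid tumour cells are not muscle.

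The promoters of the members were read first, because the genes that moved together under tazemetostat include classic CArG genes. RefSeq promoter windows of GRCh38.p14, 250 bases upstream of 1 start site per gene, were found for 30 of the 38 members. A CArG box, which reads the same on both strands in its general form, was present in 8 of these 30 windows (26.7%), compared with 1.14% of 27305 promoters and 0.996% of the 10140 promoters of tested genes. The TEAD site CATTCC, searched on both strands, was also present in 8 (26.7%), compared with 11.9% and 9.58%, and no CArG match overlapped one. Windows of 5 members are printed 5′ to 3′ on the gene's strand with the CArG box in capitals. MYLK and ACTG2 rose with tazemetostat in all 3 lines and hold 1 and 2 matches. CNN2 and FLNA hold 1 match each and did not pass the test in any line. ACTA2 rose from near 0 reads, and its window at this 1 start site holds none. The windows lie at chr3:123620549-123620798 (MYLK, minus strand), chr2:73892758-73893007 (ACTG2, plus strand), chr19:1026358-1026607 (CNN2, plus strand), chrX:154374635-154374884 (FLNA, minus strand) and chr10:88991338-88991587 (ACTA2, minus strand).
MYLK: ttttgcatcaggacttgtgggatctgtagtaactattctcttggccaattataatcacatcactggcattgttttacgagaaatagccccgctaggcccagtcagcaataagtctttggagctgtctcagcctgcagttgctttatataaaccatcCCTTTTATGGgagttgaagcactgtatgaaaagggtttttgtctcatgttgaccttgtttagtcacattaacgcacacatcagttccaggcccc
ACTG2: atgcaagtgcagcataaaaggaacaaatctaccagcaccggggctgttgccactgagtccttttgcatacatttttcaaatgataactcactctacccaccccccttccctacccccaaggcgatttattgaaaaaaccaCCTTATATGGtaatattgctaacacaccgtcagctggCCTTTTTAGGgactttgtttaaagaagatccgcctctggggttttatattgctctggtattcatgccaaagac
CNN2: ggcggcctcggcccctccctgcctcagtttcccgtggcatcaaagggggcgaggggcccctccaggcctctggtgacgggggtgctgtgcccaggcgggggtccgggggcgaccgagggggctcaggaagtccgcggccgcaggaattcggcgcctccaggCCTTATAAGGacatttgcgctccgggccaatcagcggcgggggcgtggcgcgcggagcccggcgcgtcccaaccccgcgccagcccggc
FLNA: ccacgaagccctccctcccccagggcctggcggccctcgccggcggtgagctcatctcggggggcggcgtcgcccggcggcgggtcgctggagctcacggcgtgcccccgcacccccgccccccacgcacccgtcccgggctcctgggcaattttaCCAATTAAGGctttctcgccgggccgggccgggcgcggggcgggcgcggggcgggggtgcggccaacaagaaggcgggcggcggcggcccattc
ACTA2: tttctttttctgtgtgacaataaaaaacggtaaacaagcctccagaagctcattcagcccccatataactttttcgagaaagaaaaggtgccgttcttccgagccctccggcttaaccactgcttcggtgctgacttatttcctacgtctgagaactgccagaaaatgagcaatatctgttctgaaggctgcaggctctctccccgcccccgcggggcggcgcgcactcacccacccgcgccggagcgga

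The 8 members without a window were TAGLN, MYL4, MYL9, MYH3, MYH11, TNNC1, TNNI1 and DES. TAGLN rose in 3 lines and is missing from the counts that follow. Of the members with a window, 2 of 11 that rose in 3 lines had a CArG match, and 0 of 6 that rose in 1 or 2 lines. So did 4 of 11 that rose in none and both untested members with a window, ACTA1 and ACTC1. Whether these shares differ was not tested. The matches began between 73 and 173 bases upstream of the start. The members are known muscle genes, so a share of CArG boxes above that of other promoters describes how they were chosen. Other start sites, introns and enhancers were not searched. A window without a match, as for ACTA2, therefore does not show that a gene lacks a CArG box. The number of CG dinucleotides in the window ranged from 0 to 38, with a median of 5, among the members that rose in 3 lines. It ranged from 10 to 34 (median 23) among those that rose in 1 or 2 lines, and from 6 to 38 (median 16) among those that rose in none. The median was 16 over the 30 members beside 21 for the promoters of tested genes. The difference between these outcome groups was not tested.

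**Figure D1:**
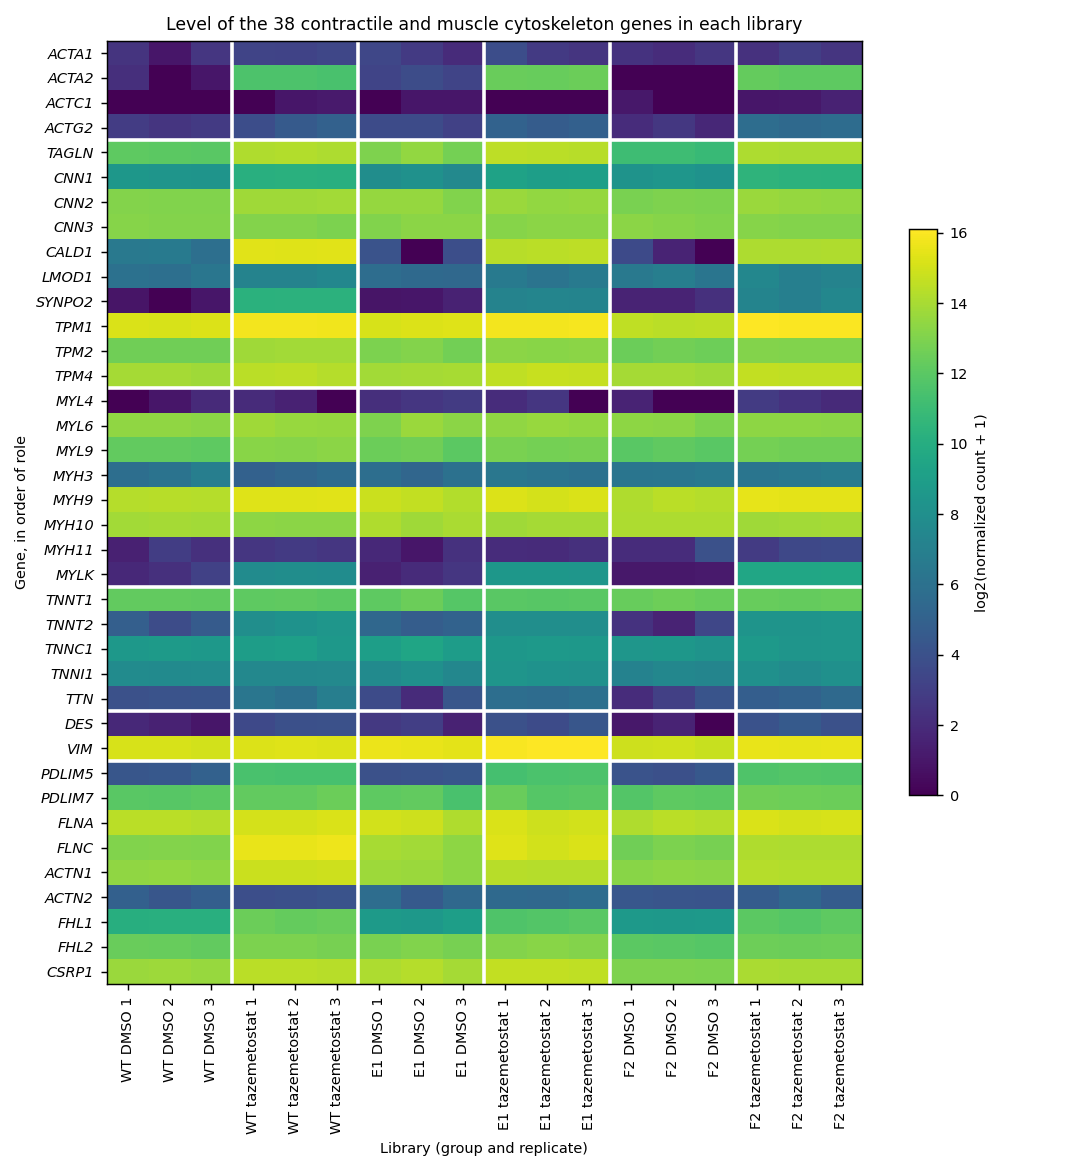
Level of each of the 38 genes (rows, in order of role, white lines between roles) in each of the 18 libraries (columns, 3 per group) as log2(normalized count + 1). ACTA2, CALD1, SYNPO2, MYLK and PDLIM5 turn from dark in the DMSO libraries to bright in the tazemetostat libraries of all 3 lines, whereas VIM, TPM1 and MYL6 are bright throughout and ACTC1, MYL4 and MYH11 dark throughout.

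The first comparison asked which of these genes responded to EZH2 inhibition. Of the 33 tested members, tazemetostat raised 17 in WT, 12 in clone E1 and 15 in clone F2, and lowered none. Calls were made with limma on log2(normalized count + 1), at an adjusted p below 0.05 where the change reached 1 in size. In either direction 51.5%, 36.4% and 45.5% of the tested members were called, beside 21.3%, 15.1% and 17% of all tested genes. Of all 16154 tested genes, 14.5% rose and 6.77% fell in WT. For clone E1 these shares were 11.3% and 3.78%, and for clone F2 13.3% and 3.71%. The median log2 change of the tested members was 1.02, 0.61 and 0.82 in the lines WT, E1 and F2, beside 0.03, 0.02 and 0.02 over all tested genes. Some members passed the filter only through their level with tazemetostat; among members with a DMSO mean of at least 10, 13 of 29 rose in WT, 9 of 30 in E1 and 8 of 26 in F2, compared with 8.4%, 4.75% and 6.4% of all genes with such a mean. With every library scaled to the same total, 15 members rose and 1, MYH3, fell in WT, and 12 and 15 rose in E1 and F2. The members together took 0.72% to 0.721% of the reads of a WT DMSO library and 1.24% to 1.28% of a WT tazemetostat library. The shares went from 0.766% to 0.914% up to 1.25% to 1.33% in E1, and from 0.614% to 0.655% up to 1.21% to 1.25% in F2, without overlap between treatments in any line.

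The same 12 members rose in all 3 lines: ACTA2, ACTG2, TAGLN, CNN1, CALD1, SYNPO2, MYLK, TNNT2, TTN, PDLIM5, FLNC and FHL1. MYH9 rose in WT and F2, LMOD1, TPM2, MYL9 and ACTN1 in WT, and TPM1 and CSRP1 in F2. The other 14 tested members did not pass the test in any line. Of all tested genes, 9.78% rose in 3 lines and 83.1% in none.

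**Figure D2:**
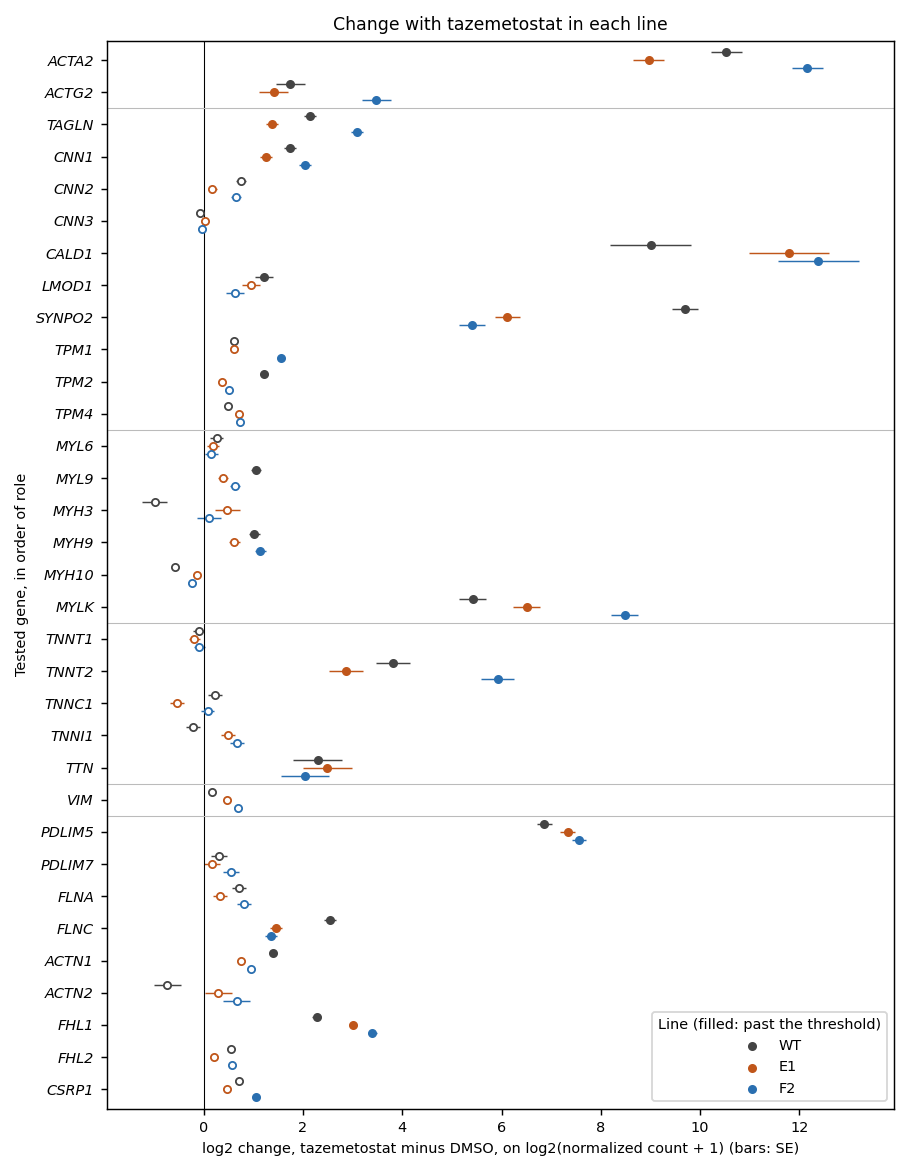
log2 change with tazemetostat for the 33 tested genes in WT, E1 and F2 (points, bars are SE, filled points past the threshold). The points of CALD1 and ACTA2 lie beyond 8 in all 3 lines, and those of PDLIM5 between 6.86 and 7.56. Those of TPM4, TNNT1, TNNC1, TNNI1, MYH10 and MYL6 lie within 1 of 0 in all 3 lines.

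Among the actins, ACTA2, the smooth muscle alpha actin, was close to silent in DMSO and abundant with tazemetostat. WT DMSO libraries held 3.49, 0 and 0.946 normalized counts and WT tazemetostat libraries 3106, 3132 and 2893. E1 went from 8.93, 12.5 and 8.77 to 5492, 5278 and 5631. F2 had 0 reads in all 3 DMSO libraries and 4906, 4438 and 4398 normalized counts with tazemetostat. The treatments did not come near each other in any line. Changes on the log2 scale, in the order WT, E1 and F2 that is kept throughout, were 10.53 ± 0.32, 8.96 ± 0.32 and 12.16 ± 0.32 (SE; limma adjusted p 2.3e-15, 2.4e-14 and 2.6e-16). From the summed reads, ACTA2 was 1990-fold higher in WT (95% conditional binomial interval 854 to 6140, from 5 DMSO reads), 544-fold in E1 (385 to 795) and at least 1400-fold higher in F2, computed against a floor of 3 reads in each library. These intervals cover counting error only. Antisense exons of FAS and ACTA2-AS1 cover 30.1% of the ACTA2 exon bases, and the kit was stranded but the strand setting of the counting is not given in the sources used here. FAS had a mean of 0.919 normalized counts in WT DMSO and 587 with tazemetostat, 8.62 and 1701 in E1, and 0.341 and 795 in F2. Its part in the ACTA2 counts was not tested.

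ACTG2, the enteric smooth muscle actin, rose as well but stayed low. It had 6.11, 4.71 and 5.68 normalized counts in WT DMSO and 12.8, 22.4 and 30.8 with tazemetostat, a log2 change of 1.75 ± 0.29 (limma adjusted p 3.5e-05). It went from 11.6, 11.6 and 7.79 to 31.9, 25.1 and 29.2 in E1, and from 3.07, 5.19 and 2.43 to 52.4, 43.4 and 49.9 in F2, with log2 changes of 1.41 and 3.48. In each line the lowest treated library exceeded the highest DMSO library. The skeletal and cardiac alpha actins did not reach the filter: ACTA1 ranged from 0.942 to 12.8 normalized counts over the 18 libraries, and ACTC1 had at most 2 reads in any library. The cytoplasmic actins ACTB and ACTG1, which every cell uses, did not pass, with log2 changes of 0.28, 0.19 and 0.33 and of 0.17, 0.13 and 0.17 in WT, E1 and F2. The tested actins that rose were the smooth muscle forms.

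Among the actin filament regulators, 6 of 10 rose in WT, 4 in clone E1 and 5 in clone F2. That is 60%, 40% and 50%, where 14.5%, 11.3% and 13.3% of all tested genes rose. CALD1, which encodes caldesmon, had 90, 96.1 and 58.7 normalized counts in WT DMSO and 41869, 40666 and 41505 with tazemetostat. In E1 it went from 16.1, 0 and 13.6 to 21471, 22190 and 23498, and in F2 from 11.3, 2.07 and 0 to 17574, 17445 and 18800. CALD1 thereby reached the highest treated level of any member that was under 100 in DMSO, and E1 DMSO replicate 2 and F2 DMSO replicate 3 held no read of it. The log2 changes were 9 ± 0.81, 11.79 ± 0.81 and 12.38 ± 0.81 (limma adjusted p 1.5e-08, 4.2e-10 and 1.7e-10). From the summed reads it was 505-fold higher in WT (448 to 572).

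SYNPO2, an actin-binding protein of the Z-disc also known as myopodin, had at most 3 reads in any DMSO library. With tazemetostat it had 1232, 1281 and 1304 normalized counts in WT, 149, 161 and 152 in E1, and 150, 125 and 174 in F2. It rose in every line, and the WT level stood far above that of both clones. The log2 changes were 9.69 ± 0.26, 6.12 ± 0.26 and 5.41 ± 0.26, with limma adjusted p of 2.9e-16, 2.3e-13 and 1.3e-12. As the DMSO groups are at the floor of 3 reads, these values depend on the pseudocount of 1.

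TAGLN, or SM22, an early marker of smooth muscle that binds actin, started high and rose further. It had 4438, 4228 and 3998 normalized counts in WT DMSO and 18880, 19198 and 18055 with tazemetostat. E1 went from 8182, 11349 and 6789 to 23389, 22345 and 21471, and F2 from 2155, 2147 and 1827 to 18097, 16781 and 17232. Over the 3 lines the DMSO libraries spanned 1827 to 11349 and the treated libraries 16781 to 23389. From the summed reads TAGLN was 4.44-fold higher in WT, 2.55-fold in E1 and 8.46-fold in F2, with log2 changes of 2.15 ± 0.12, 1.38 ± 0.12 and 3.09 ± 0.12 (limma adjusted p 1.7e-11, 1.5e-08 and 7.9e-14). CNN1, the smooth muscle calponin, rose with log2 changes of 1.75, 1.25 and 2.05, from means of 339, 236 and 316 normalized counts to 1144, 556 and 1306. Its non-muscle relatives did not pass: CNN2 had log2 changes of 0.75, 0.18 and 0.66, and CNN3 of -0.07, 0.02 and -0.03.

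Tropomyosins, which lie along the actin filament, were abundant before treatment and moved less. TPM2, the beta form, had 6305, 6171 and 6302 normalized counts in WT DMSO and 14106, 14716 and 14617 with tazemetostat, a log2 change of 1.21 ± 0.08 (limma adjusted p 9.6e-11). In E1 it had 7790, 8740 and 6605 and then 10166, 9609 and 9918, and in F2 5675, 6506 and 6056 and then 8895, 8420 and 8559. Treated libraries lay above DMSO libraries in both clones, yet the changes of 0.37 and 0.51 stayed under the fold limit. TPM1 rose in F2 by 1.55 and had changes of 0.62 and 0.61 in WT and E1, and TPM4, a non-muscle form, had 0.50, 0.72 and 0.73. LMOD1, leiomodin, which nucleates actin filaments in smooth muscle, rose in WT by 1.22 and had 0.95 and 0.64 in E1 and F2.

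**Figure D3:**
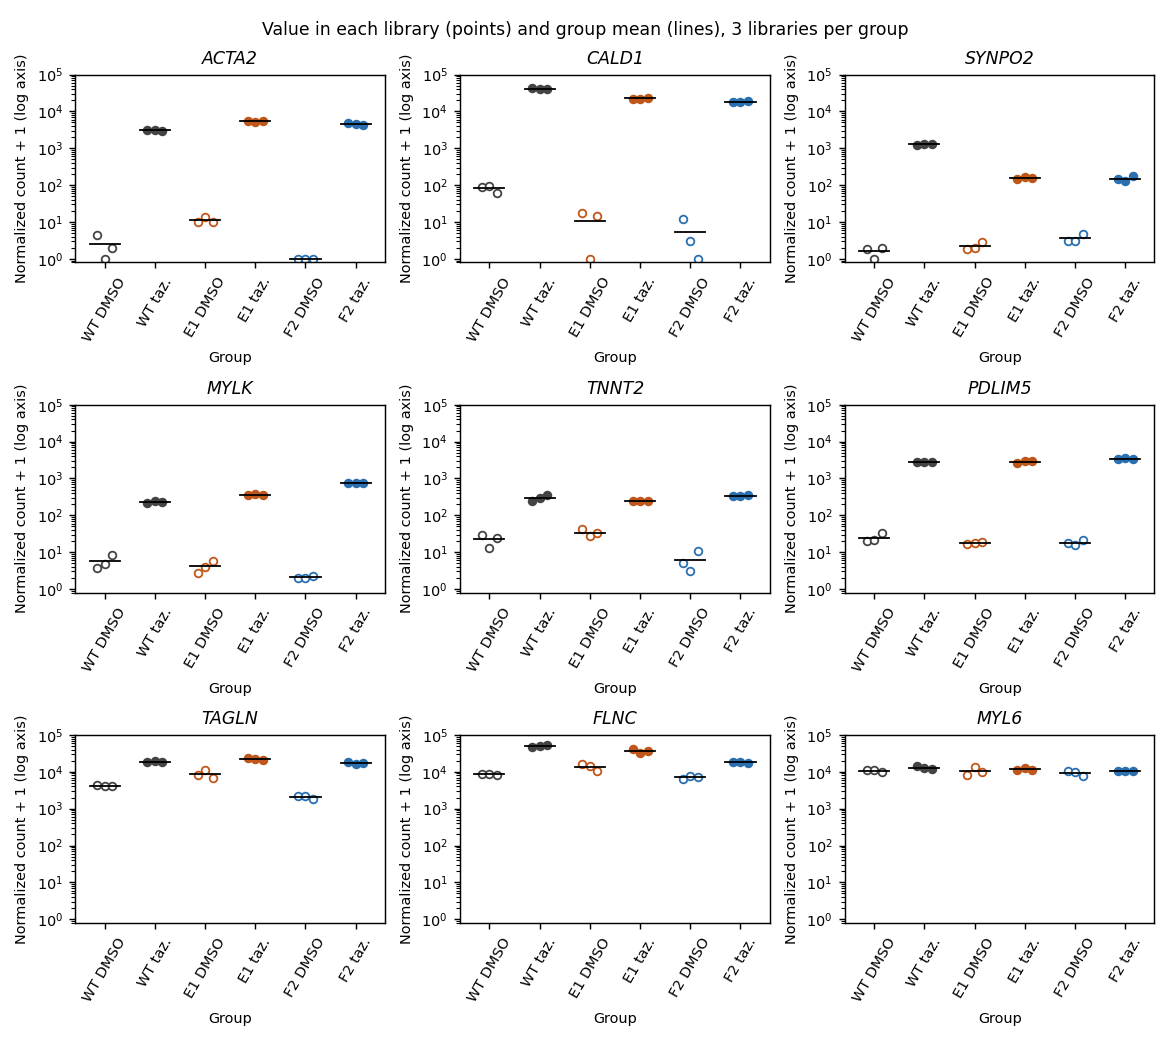
Normalized count + 1 (log axis) in each library (points; open for DMSO, filled for tazemetostat) with the group mean (lines) for 9 genes, 3 libraries per group. ACTA2, CALD1, SYNPO2, MYLK and PDLIM5 are separated by more than an order of magnitude between treatments in each line, TAGLN and FLNC by a smaller gap above a high start, and the MYL6 points overlap in E1 and F2.

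Of the 6 tested genes for myosins and their kinase, 3 rose in WT, 1 in clone E1 and 2 in clone F2. These are 50%, 16.7% and 33.3%, where 14.5%, 11.3% and 13.3% of all tested genes rose. The gene that rose in E1 was the kinase. MYLK, the kinase that switches on smooth muscle myosin, had 2.62, 3.77 and 7.57 normalized counts in WT DMSO and 212, 238 and 229 with tazemetostat. In E1 it went from 1.79, 2.90 and 4.87 to 365, 371 and 356, and in F2 from 1.02, 1.04 and 1.21, which is 1 read per library, to 746, 734 and 752. The treated levels were ordered WT, E1, F2 with no overlap between lines. Its log2 changes were 5.42 ± 0.27, 6.51 ± 0.27 and 8.48 ± 0.27, with limma adjusted p of 2.1e-12, 1.5e-13 and 2.6e-15. MYL9, the regulatory light chain that MYLK phosphorylates, had 4754, 4790 and 4484 normalized counts in WT DMSO and 9559, 9358 and 10039 with tazemetostat. Its log2 change of 1.05 ± 0.10 in WT (limma adjusted p 5.5e-08) was 0.89 and under the fold limit with every library scaled to the same total. In E1 it had 5792, 6303 and 4213 and then 7263, 6658 and 7110, and in F2 4010, 4553 and 4049 and then 6945, 6333 and 6299, changes of 0.39 and 0.64 that did not pass.

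MYH9, the main non-muscle myosin heavy chain, went from 20193, 20996 and 19794 normalized counts to 40257, 40936 and 42437 in WT. In F2 it went from 18417, 22352 and 20500 to 45753, 44022 and 44634. The log2 changes were 1.02 ± 0.11 and 1.14 ± 0.11 (limma adjusted p 1.3e-07 and 3.5e-08), and the value in WT was 0.87 with every library scaled to the same total. In E1 it had 28592, 25634 and 19236, the last in replicate 3, and then 39597, 34550 and 37158, a change of 0.62 that did not pass. MYH10, the other abundant non-muscle heavy chain, did not pass in any line, with values of -0.57, -0.14 and -0.24. MYL6, the essential light chain of smooth and non-muscle myosin, had 0.27, 0.19 and 0.16. MYH3, an embryonic skeletal myosin, had 55, 69.7 and 119 normalized counts in WT DMSO and 30.5, 39.3 and 48 with tazemetostat, a log2 change of -0.98 ± 0.25 just under the fold limit. Both edgeR (-1.07, adjusted p 0.0013) and DESeq2 (-1.06, adjusted p 0.00026) called it lower in WT. It had 56.3, 39.6 and 64.3 and then 83, 73.5 and 64.1 in E1, and 75.8, 78.8 and 88.6 and then 76.7, 84.8 and 104 in F2. MYH11, the heavy chain that defines mature smooth muscle, had at most 12 reads in any library, and MYL4, an atrial light chain, at most 6.

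Among the proteins of the striated sarcomere, TNNT2 and TTN rose in all 3 lines while TNNT1, TNNC1 and TNNI1 passed in none. TNNT2, cardiac troponin T, had 28, 12.3 and 23.7 normalized counts in WT DMSO and 248, 291 and 355 with tazemetostat. It went from 41.1, 26.1 and 32.1 to 246, 244 and 245 in E1, and from 4.10, 2.07 and 9.71 to 326, 324 and 347 in F2. Over the 3 lines the treated libraries lay between 244 and 355, and the DMSO libraries between 2.07 and 41.1. The log2 changes were 3.81 ± 0.34, 2.87 ± 0.34 and 5.92 ± 0.34, with limma adjusted p of 1.2e-08, 8.6e-07 and 2e-11. TNNT2 shares exon bases with LAD1 on its own strand, and LAD1 had means of 22.1 and 137 normalized counts in WT, 24.9 and 113 in E1, and 8.06 and 109 in F2; its part in the TNNT2 counts was not tested.

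TTN, the giant spring protein of the sarcomere, had 14.8, 16 and 17 normalized counts in WT DMSO and 78.8, 61.7 and 116 with tazemetostat. It went from 11.6, 2.90 and 18.5 to 54.3, 50.3 and 59.4 in E1, and from 3.07, 7.26 and 17 to 27.2, 32.3 and 43.5 in F2. The gene was low for its length in every library. In log2 terms it changed by 2.30 ± 0.49, 2.49 ± 0.49 and 2.04 ± 0.49 (limma adjusted p 5e-04, 0.00036 and 0.0019). TTN-AS1, which overlaps TTN on the other strand, had means of 379 and 275 normalized counts in WT, 234 and 276 in E1, and 356 and 317 in F2. CCDC141, which shares exon bases with TTN on the same strand, had means of 0.631 and 15.1 in WT, 0 and 3.27 in E1, and 0 and 4.45 in F2, and its part in the TTN counts was not tested. TNNT1, the slow skeletal troponin T, had the highest level of the 4 troponin genes per kilobase of exon in WT, at 2161 normalized counts per kilobase in DMSO, and log2 changes of -0.10, -0.19 and -0.09. TNNC1 had 0.23, -0.53 and 0.08, and TNNI1 had -0.21, 0.49 and 0.67.

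Of the intermediate filament pair, VIM reached the filter and DES did not. VIM, vimentin, the filament of mesenchymal cells, had 35867, 36387 and 32884 normalized counts in WT DMSO and 39539, 39939 and 38991 with tazemetostat. It had 51451, 47868 and 44184 and then 62093, 69993 and 67413 in E1, and 30137, 31090 and 27410 and then 48527, 46202 and 47938 in F2. Changes of 0.17, 0.48 and 0.69 did not reach the fold limit. DES, desmin, the filament of muscle, had 2.62, 1.88 and 0.946 normalized counts in WT DMSO and 10.8, 14 and 14.8 with tazemetostat. It had 5.36, 6.76 and 1.95 and then 14.9, 11.6 and 18.8 in E1, and 1.02, 2.07 and 0 and then 15.5, 22.2 and 14.8 in F2. Treated libraries were above DMSO libraries in each line, but DES stayed under the filter and was not tested.

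Of the 9 genes for Z-disc, LIM-domain and crosslinking proteins, 4 rose in WT, 3 in clone E1 and 4 in clone F2. That is 44.4%, 33.3% and 44.4%, where 14.5%, 11.3% and 13.3% of all tested genes rose. PDLIM5, a PDZ and LIM protein that links the Z-disc to kinases, had 19.2, 20.7 and 31.2 normalized counts in WT DMSO and 2864, 2757 and 2781 with tazemetostat. It went from 15.2, 16.4 and 18.5 to 2567, 2926 and 3040 in E1, and from 16.4, 14.5 and 20.6 to 3275, 3495 and 3447 in F2. Among the members, PDLIM5 was the most even large rise across lines, with log2 changes of 6.86 ± 0.15, 7.33 ± 0.15 and 7.56 ± 0.15 (limma adjusted p 2.5e-17, 1e-17 and 5.5e-18). PDLIM7, of the same family, did not pass, with 0.31, 0.17 and 0.55.

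FLNC, filamin C, the muscle form of the actin crosslinker, had 8582, 8745 and 8340 normalized counts in WT DMSO and 48128, 48919 and 52363 with tazemetostat. E1 went from 16475, 14602 and 10289 to 41327, 33241 and 37425, and F2 from 6348, 7777 and 7186 to 18244, 17895 and 17866. The WT rise was larger than that of either clone. From the summed reads FLNC was 5.80-fold higher in WT, 2.68-fold in E1 and 2.54-fold in F2, with log2 changes of 2.54 ± 0.12, 1.46 ± 0.12 and 1.35 ± 0.12 (limma adjusted p 1.9e-12, 9e-09 and 2.4e-08). FLNA, the general filamin, had 0.72, 0.34 and 0.82 and did not pass. FHL1, a LIM-domain protein of muscle, had 1073, 1119 and 1138 normalized counts in WT DMSO and 5665, 5090 and 5471 with tazemetostat. It went from 433, 387 and 518 to 3295, 3513 and 3985 in E1, and from 391, 378 and 396 to 4178, 3720 and 4431 in F2. The log2 changes were 2.28 ± 0.09, 3.01 ± 0.09 and 3.40 ± 0.09, with limma adjusted p of 1.5e-13, 2.7e-15 and 4.2e-16. Its relative FHL2 did not pass, with 0.55, 0.22 and 0.58.

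The alpha-actinins, which crosslink actin at the Z-disc and at adhesions, differed between forms. ACTN1, the non-muscle form, rose in WT by 1.40 ± 0.07 (limma adjusted p 4.4e-12) and had 0.76 and 0.95 in E1 and F2. ACTN2, the sarcomeric form, was low, with 29.7, 18.8 and 27.4 normalized counts in WT DMSO and 13.8, 14 and 16 with tazemetostat. It had 51.8, 22.2 and 41.9 and then 43.7, 42.6 and 49.9 in E1, and 19.5, 17.6 and 17 and then 24.3, 41.4 and 25 in F2. Its changes of -0.73, 0.30 and 0.67 did not pass. CSRP1, a LIM protein of smooth muscle, rose in F2 by 1.05 ± 0.08 and had 0.71 and 0.48 in WT and E1.

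Per kilobase of exon, VIM had the highest level of the members in all 6 groups, at 6794 ± 367 normalized counts per kilobase in WT DMSO and 7656 ± 92 in WT tazemetostat (SD, n = 3). Next in WT DMSO were CNN3 at 3119 ± 84 and TPM1 at 2852 ± 141. With tazemetostat the next places in WT were taken by FLNC at 5367 ± 243 and TAGLN at 4777 ± 151, both muscle forms. In E1 they were taken by TAGLN and TPM1, and in F2 by TPM1 and the non-muscle MYH9. FLNC was in place 5 in treated E1 and in place 13 in treated F2. In WT, CALD1 moved from place 25 of 38, at 8.29 per kilobase, to place 7, at 4201, and ACTA2 from place 33 to place 20. In the treated clones CALD1 was in place 14 in E1 and place 15 in F2.

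Genes outside the list were counted for context. Of 64 other contractile and sarcomere genes 41 were tested, and 10 rose and 2 fell in WT, 9 and 2 in E1, and 12 and 2 in F2. In either direction these are 29.3%, 26.8% and 34.1% of the 41 tested, beside 21.3%, 15.1% and 17% of all tested genes. PDLIM1, a relative of PDLIM5, had 1 read in each DMSO group, and its treated means were 4087 ± 130, 2112 ± 80 and 7006 ± 310 normalized counts in the 3 lines (SD, n = 3). PALLD, palladin, an actin scaffold, rose with log2 changes of 9.12, 10.61 and 10.12. MYBPC1, a skeletal myosin-binding protein, rose by 7.49, 5.31 and 5.55. The falls were MYOM3 (-1.33) and MYBPC2 (-1.06) in WT, ACTN3 (-1.13) and SORBS2 (-1.09) in E1, and SORBS2 (-1.25) and NEBL (-1.15) in F2.

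Of 35 regulators of contraction and of contractile gene transcription, 26 were tested, and 4 rose and 1 fell in WT, 2 rose in E1 and 3 rose in F2. In either direction these are 19.2%, 7.69% and 11.5% of the 26 tested, beside 21.3%, 15.1% and 17% of all tested genes. MEF2C, a muscle transcription factor, rose with log2 changes of 5.05, 6.85 and 7.40, and GATA6, a factor of smooth muscle and heart, with 4.15, 7.47 and 3.81. MEF2D rose in WT by 1.20, MYLK2 fell there (-1.24), and MYLK3 rose in F2 by 1.05. SRF, which binds the CArG box, did not pass, with 0.24, 0.08 and 0.15. Its partners MKL1 and MKL2 did not pass either, with 0.47, 0.26 and 0.43 and with -0.25, 0.16 and -0.04. MYOCD, myocardin, was under the filter, with means between 0.308 and 5.80 normalized counts over the 6 groups.

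Of the marker lists of other cell types, some moved with the members and some did not. The summed level of 5 epithelial-like markers was 39287 to 43898 normalized counts in WT DMSO and 270804 to 283122 with tazemetostat, mostly keratins KRT8 and KRT18. It was 56761 to 85169 and then 151667 to 158520 in E1, and 22181 to 24417 and then 146800 to 157870 in F2. Of 6 smooth muscle-like markers, of which 5 are members, the sum went from 413 to 436 up to 1306 to 1387 in WT, from 249 to 346 up to 625 to 768 in E1, and from 381 to 475 up to 1470 to 1633 in F2. MYH11 and MYOCD stayed at a few reads, and CNN1 gave most of the sum. In bulk RNA, more cells of a kind and more transcript per cell cannot be told apart. The skeletal muscle-like sum went from 97.8 to 168 down to 57.2 to 83.7 in WT, from 59.9 to 80.9 up to 85.7 to 100 in E1, and from 167 to 204 down to 136 to 159 in F2. The cardiac muscle-like sum went from 115 to 127 up to 426 to 534 in WT and from 110 to 121 up to 186 to 208 in F2, and was 62.3 to 136 and then 68.1 to 86.1 in E1. The fibroblast-like sum was 4106 to 4316 and then 4101 to 4421 in WT, 3877 to 4592 and then 3474 to 3521 in E1, and 3371 to 3523 and then 7293 to 8476 in F2. Endothelial-like markers were low but moved, with sums of at most 1.21 in any DMSO library. With tazemetostat they summed to 26.6 to 43 in WT, 14.5 to 17.9 in E1 and 29.1 to 39.4 in F2. Blood cell-like markers summed to at most 7.26 in any library. The part of these marker lists in the results was not tested.

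The second comparison asked what set the clones apart from WT. In DMSO, E1 exceeded WT in 2 members and lay below it in 2, where 2.35% and 2.69% of all tested genes were, and 1 was higher and 6 lower in F2, where 0.885% and 2.09% were. The 3 WT libraries serve as reference for both clones. In either direction 12.1% and 21.2% of the tested members were called, beside 5.04% and 2.98% of all tested genes. FHL1 was lower in both, with log2 differences of -1.32 ± 0.09 in E1 and -1.51 ± 0.09 in F2 (limma adjusted p 4.9e-09 and 1.6e-09). CALD1 was lower in both too, with -3.68 ± 0.81 and -4.59 ± 0.81 (limma adjusted p 0.0026 and 0.00052), although with only the groups compared in the fit the adjusted p in E1 was 0.12. TAGLN lay on opposite sides, higher in E1 by 1.02 ± 0.12 and lower in F2 at -1.05 ± 0.12. It fell under the fold limit at 0.82 without E1 DMSO replicate 2, at 0.98 without WT DMSO replicate 3 and, in F2, at -0.97 without F2 DMSO replicate 3. TNNT2 was lower in F2, at -1.94 ± 0.34, with an adjusted p of 0.068 when only the groups compared were in the fit.

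The remaining calls in DMSO rested on a handful of reads. ACTA2 was higher in E1 by 2.41 ± 0.32, from 32 reads in E1 and 5 in WT over 3 libraries each. In F2 the value of ACTA2 was -1.04 ± 0.32, from 0 reads against those 5, and the groups overlapped at 0. MYLK in F2, at -1.34, and SYNPO2 in F2, at 1.19, were values of the same kind, and edgeR called neither ACTA2 nor SYNPO2 in F2 (adjusted p 0.061 and 0.15). Between the clones in DMSO, 5 members were higher and 1 lower in E1, where 4.05% and 3.52% of all tested genes were. TAGLN differed by 2.07 ± 0.12 and CSRP1 by 1.16 ± 0.08, ACTA2, ACTG2 and TNNT2 by 3.45, 1.34 and 2.6, and LMOD1 by -1 ± 0.18, on the edge of the limit and lost in 3 of 6 fits without 1 library.

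Under tazemetostat, 1 member was higher and 2 lower in E1 than in WT, where 5.4% and 5.95% of all tested genes were. SYNPO2 had a log2 difference of -3.04 ± 0.26 and CNN1 of -1.04 ± 0.12 (limma adjusted p 2e-08 and 6.3e-07), and ACTN2 was higher by 1.57 ± 0.27. In F2, 3 members were higher and 3 lower, where 7.31% and 4.97% were. SYNPO2, at -3.09 ± 0.26, FLNC, at -1.47 ± 0.12, and TTN, at -1.27 ± 0.49, were lower (limma adjusted p 1.5e-08, 1.8e-08 and 0.038). MYLK, ACTG2 and MYH3 were higher by 1.71 ± 0.27, 1.18 ± 0.29 and 1.16 ± 0.25. CALD1, whose treated libraries in F2 all lay below those in WT, had -1.21 ± 0.81 and did not pass in limma (adjusted p 0.23), whereas edgeR (-1.19, adjusted p 1.6e-06) and DESeq2 (-1.2, adjusted p 0.013) on the recovered reads called it lower. Without WT tazemetostat replicate 1, the library with the lowest ACTG2 and MYH3 of its group, 3 members passed instead of 6, with ACTG2 at 0.86. With every library scaled to the same total, 1 member was higher and 1 lower in E1, and 4 higher and 2 lower in F2. In all, 9.09% and 18.2% of the tested members were called, beside 11.3% and 12.3% of all tested genes. The TTN call was lost in 4 of 6 fits that left out 1 library (adjusted p 0.072 to 0.13), and CNN1 in E1 was -0.99 without E1 tazemetostat replicate 2.

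Under tazemetostat the clones also differed from each other, with 1 member higher and 2 lower in E1, where 2.39% and 4.43% of all tested genes were. That is 9.09% of the tested members, beside 6.82% of all tested genes. FLNC was higher in E1 by 1.05 ± 0.12, and CNN1 and MYLK had -1.23 ± 0.12 and -1.03 ± 0.27. FLNC was 0.97 without E1 tazemetostat replicate 1. With the same-total scaling FLNC was 0.96 and 0 members were higher and 2 lower.

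**Figure D4:**
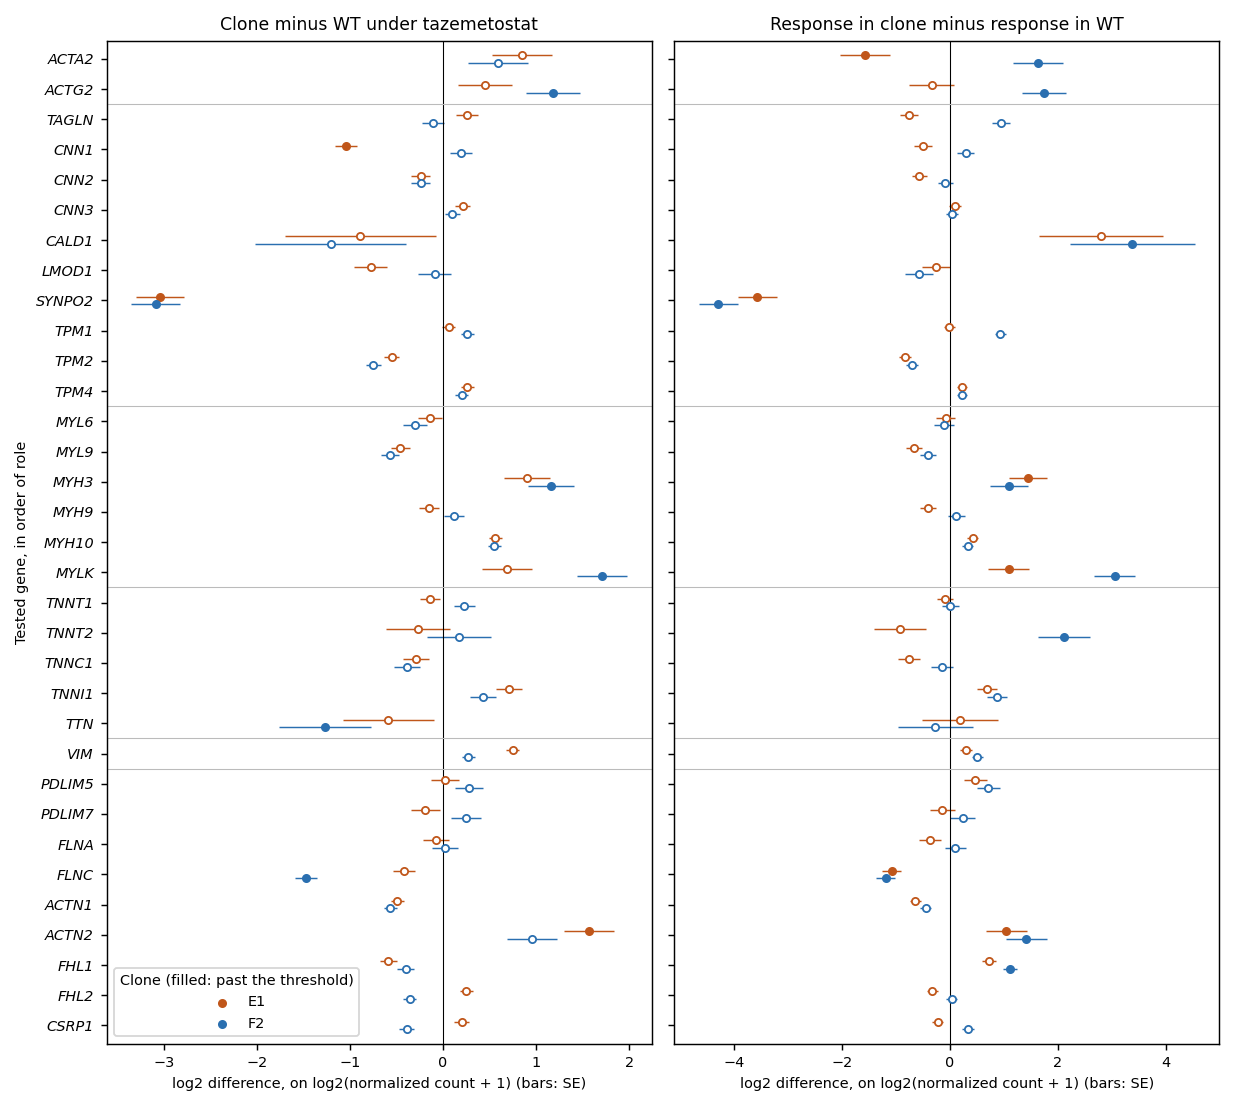
Left, log2 difference between each clone and WT under tazemetostat; right, the log2 change with tazemetostat in the clone minus that in WT, for the 33 tested genes (points, bars are SE, filled points past the threshold). SYNPO2 lies at -3.04 and -3.09 on the left and at -3.57 and -4.29 on the right, and the points of most other genes lie within 1 of 0.

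The third comparison asked whether each clone responded otherwise than WT, by testing the difference of the log2 changes. For E1, 3 members had a higher log2 change than in WT and 3 a lower one, where 4.79% and 5.21% of all tested genes did. For F2 these numbers were 8 and 2, where 4.82% and 2.66% did. In either direction these are 18.2% and 30.3% of the tested members, beside 10% and 7.48% of all tested genes. The WT libraries enter both differences. SYNPO2 had a lower response in both clones, at -3.57 ± 0.36 in E1 and -4.29 ± 0.36 in F2 (limma adjusted p 6.2e-07 and 1.2e-07). FLNC did too, at -1.08 ± 0.18 and -1.19 ± 0.18 (limma adjusted p 0.00011 and 5.4e-05). For FLNC the value in E1 was -0.94 and under the limit without E1 DMSO replicate 1.

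MYH3 had a higher response in both clones, at 1.45 ± 0.35 and 1.09 ± 0.35. It had a WT change of -0.98 and clone changes of 0.48 and 0.11, none past the threshold on its own in limma. In F2 the call was lost without WT DMSO replicate 3, WT tazemetostat replicate 1, F2 DMSO replicate 1 or 2, or F2 tazemetostat replicate 3 (limma adjusted p 0.051 to 0.078). ACTN2, the sarcomeric alpha-actinin, differed by 1.04 ± 0.38 in E1 and 1.41 ± 0.38 in F2. For E1 the call was lost in 9 of 12 fits that left out 1 library and in edgeR (adjusted p 0.056). In F2, TNNT2 (2.11 ± 0.48), ACTG2 (1.74 ± 0.41) and FHL1 (1.11 ± 0.13) had higher responses. Of these, DESeq2 did not call ACTG2 (adjusted p 0.051). FHL1 started lower in F2, at a DMSO mean of 388 beside 1110 in WT, and its treated mean was 4110 beside 5409. TNNT2 also started lower, at 5.29 beside 21.3, and its treated mean was 332 beside 298. For ACTG2 the DMSO means were 3.56 and 5.5 and the treated means 48.6 and 22.

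Differences of ACTA2, MYLK and SYNPO2 were computed over DMSO groups at or near 0 reads, and those of CALD1 over clone DMSO groups near 0 beside 267 reads in WT. ACTA2 differed by -1.57 ± 0.46 in E1 and 1.63 ± 0.46 in F2, values that were -0.40 (limma adjusted p 0.14) and 0.93 with a pseudocount of 5. MYLK differed by 1.09 ± 0.38 in E1 and 3.05 ± 0.38 in F2, and edgeR called it in F2 but not in E1 (adjusted p 0.085), where 8 of 12 fits without 1 library lost it too. CALD1 differed by 3.38 ± 1.15 in F2 (limma adjusted p 0.036), but the adjusted p was 0.061 with a pseudocount of 0.5 and 0.06 to 0.095 in the 10 of 12 fits without 1 library that lost the call. In E1 the CALD1 value was 2.79 ± 1.15 (adjusted p 0.067), where edgeR on the recovered reads gave 2.13 and an adjusted p of 0.00092. TAGLN had -0.76 ± 0.17 in E1 and 0.94 ± 0.17 in F2, under the fold limit on both sides.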

How the data were processed

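Poly(A) RNA of 18 G401 cultures was prepared with a stranded kit and read as 50-base pairs, per the labels' protocols. Reads were processed with Trim Galore 0.4.4, STAR 2.6.0a, HTSeq and DESeq2 on hg19, per the submitters' processing notes. The annotation and the strand setting of the counting are not given in the sources used here. The authors deposited 1 table whose values are a signal, namely each gene's count over the size factor of its library. Multiplying by the step of each sample gave whole reads for 100% of values, to within 5.8e-10. Every column was mapped by its name, and groups came from the sample titles.

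limma 3.58.1 (R 4.3.3) was fitted to log2(value + 1) for the 16154 genes with a mean of at least 10, with 6 group means over all 18 samples, a mean-variance trend and no block. A gene was called at a Benjamini-Hochberg adjusted p under 0.05 over all tested genes and a log2 change of at least 1. The scale understates changes of genes with few reads. A response difference denotes the change in a clone minus that in WT. The floor was 3 reads, and floors and intervals cover counting error only. edgeR 4.0.16 and DESeq2 1.42.0 were run on the recovered reads as alternatives, and edgeR called 3466, 2458 and 2782 genes with tazemetostat in WT, E1 and F2, compared with 3436, 2434 and 2745 for limma.

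No measured value enters the rule for the members, but the members and lists were chosen with earlier results of these data known, so their shares beside all genes are descriptions. Every member was placed by role. Values in each library are given for those past the threshold in some comparison and among the 3 largest changes of their role, and for defining genes; other named genes were the 3 largest rises and falls of each context list plus SRF, MYOCD, MKL1, MKL2, ACTB and ACTG1. The result of 1 further gene that this rule names is not reported here. FAS, LAD1, ACTA2-AS1, TTN-AS1 and CCDC141 are named because their exons overlap members. They are not the only ones: 19 members share exon bases with a gene on the opposite strand and 4 with a gene on the same strand. Opposite exons cover 11.4% of the exon bases of TAGLN (PCSK7), 21.4% of TPM1 and 24.4% of VIM. In F2 DMSO the mean of PCSK7 was 2013 and that of TAGLN 2043. AC009948.5, opposite TTN, had means of 643 and 430 in WT. The part of these overlaps in the counts was not tested. Same-numbered samples' deviations correlated over 0.1 in every pair only for F2 against WT in DMSO (0.108 to 0.375), so the numbers pair the samples there by the rule used, and the block changed no member's call. Exon lengths and overlaps came from GENCODE 29, and promoter sequences from RefSeq (GRCh38.p14), a build other than that of the table. At a read length of 50 bases, 33 of 38 members shared under 2% of their windows with other genes. Plots used Python 3.11.15 with matplotlib 3.10.9.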

Additional observations from a re-analysis of the deposited data

Results flagged for a closer look

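A direct test of the difference in response to tazemetostat between a clone and WT passed the threshold for 16 member results (limma, log2 difference of the changes). These were 18.2% of the tested members in E1 and 30.3% in F2, beside 10% and 7.48% of all tested genes. Lower responses in E1 were those of SYNPO2 at -3.57, ACTA2 at -1.57 and FLNC at -1.08. Higher responses in E1 were those of MYH3 at 1.45, MYLK at 1.09 and ACTN2 at 1.04. The calls of MYLK and ACTN2 were lost in 8 and 9 of 12 fits that left out 1 library. With a pseudocount of 5, ACTA2 in E1 was -0.40 (limma adjusted p 0.14).

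In F2, SYNPO2 was lower at -4.29 and FLNC at -1.19. Higher responses in F2 were those of CALD1 at 3.38, MYLK at 3.05, TNNT2 at 2.11, ACTG2 at 1.74, ACTA2 at 1.63, ACTN2 at 1.41, FHL1 at 1.11 and MYH3 at 1.09. A higher response is a larger log2 change and need not mean a higher treated level. CALD1 and FHL1 had lower treated means in F2 (17940 and 4110 normalized counts) than in WT (41347 and 5409). Their DMSO means were 4.45 and 388 in F2 beside 81.6 and 1110 in WT. Treated means of MYLK, TNNT2, ACTG2, ACTA2, ACTN2 and MYH3 were higher in F2 than in WT. The calls of CALD1 and MYH3 in F2 were lost in 10 and 5 of 12 fits that left out 1 library. Among the members past the threshold in both clones, only ACTA2, which encodes a smooth muscle actin, had differences on opposite sides. Its DMSO groups held 5 reads in WT, 32 in E1 and 0 in F2.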

How the results depend on the processing

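Of 89 member results past the threshold, 64 stayed on their side of it under every alternative run that scored them. Of 1596 alternative values, 0 reversed direction. The runs that changed the filter, the fold change limit, the groups in the fit or the block kept the main log2 change, so they could not reverse it. Without a fold change limit no call could be lost. With a mean of at least 50, only 76 of the 89 results were scored. The replicate block changed none of the 89 calls and gave 17, 12 and 15 members with tazemetostat in WT, E1 and F2; the pairing correlations averaged 0.154, 0.072 and 0.026 there. TMM scaling changed none either. Without a fold change limit the members past the threshold numbered 26, 24 and 28 for tazemetostat in WT, E1 and F2, compared with 17, 12 and 15. They then numbered 14 for E1 and 13 for F2 against WT in DMSO (4 and 7 with the limit) and 19 for each clone against WT under tazemetostat (3 and 6). Response differences gave 19 in E1 and 20 in F2 (6 and 10), and E1 against F2 gave 19 in DMSO and 11 under tazemetostat (6 and 3). F2 against WT in DMSO gave 4 with a pseudocount of 5, 4 with only its own groups in the fit and 4 with DESeq2, and E1 against WT in DMSO gave 2 with only its own groups. Leaving out each library in turn gave 3 to 7 for F2 against WT under tazemetostat, the 3 without WT tazemetostat replicate 1. It gave 17 to 18, 12 to 13 and 15 for tazemetostat in WT, E1 and F2, 4 to 7 and 8 to 9 for the response differences of E1 and F2, and 5 to 6 for F2 against WT in DMSO.

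Scaling to the same total moved the median of all genes in WT from 0.03 to -0.12, and 57.9% of all called genes there were then higher, compared with 68.2%. The share was 71.4% in place of 59.5% for F2 against WT under tazemetostat and 75.6% in place of 64.5% for the response difference of F2. Depth limits the members with a few DMSO reads (ACTA2, SYNPO2, MYLK, CALD1 in the clones), whose rises with tazemetostat passed under each alternative run but whose size follows the pseudocount. The cause of calls lost under other settings was not tested.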
